A study of Mus musculus with 6 samples.

Results

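Voltage-gated sodium channels are membrane proteins built from a large α subunit, which forms the pore, and smaller β subunits, which alter its gating and bind cell adhesion and cytoskeletal proteins. In peripheral nerve the channels of axons are concentrated at the nodes of Ranvier and carry the action potential, while most of their mRNA is made in neuron cell bodies that lie outside the nerve trunk. Glia and the muscle beside the nerve express subunits of their own. Transcripts of 8 subunit genes were examined, chosen by symbol among the 54309 genes quantified: 5 α subunits (Scn3a, Scn4a, Scn7a, Scn8a and Scn9a) and 3 β subunits (Scn2b, Scn3b and Scn4b). The values come from 6 sham-operated sciatic nerve samples, 3 from female and 3 from male C57BL/6J mice aged 6 to 8 weeks. Each sample was a pool of nerves from 2 mice, so the 3 pools of a sex came from 6 separate animals. The left nerve was exposed at mid-thigh without being cut, the muscle over it was sutured, and sciatic nerve tissue was collected 24 h later. Every pool had therefore had the same surgery, and no unoperated nerve is compared here. Axotomized nerves are not analysed here. The comparison is between female and male sham nerves, which the study set up to find transcripts that differ between the sexes.

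The pools held 55949876 to 66285694 estimated read pairs in females and 59165914 to 78473057 in males. Mbp, which encodes a myelin protein of Schwann cells, was at 6106 to 7545 TPM (read pairs divided by transcript length, then scaled to a total that is the same in every pool) in female pools and 6829 to 7427 TPM in male pools. One library stood apart. The 16 fast skeletal muscle genes, among them Myh4, Ckm and Acta1, summed to 3799 TPM in female pool 2 and 236 TPM in male pool 1, and to 22.5 to 86.6 TPM in the other 4 pools. In male pool 1 the list did not rise as a whole. Acta1, at 91.7 TPM, and Ckm, at 20.7 TPM, were above the other 4 pools there. Myh4, at 0.707 TPM, lay within the 0.151 to 3.92 TPM of those 4 pools. Pvalb, Mybpc2 and Actn3 also lay within the ranges of those pools. The 7 slow skeletal muscle genes summed to 492 TPM in female pool 2, 571 TPM in male pool 1 and 453 to 555 TPM in the other 4. Results that rest on female pool 2 and male pool 1 are given with and without them. Because nerve tissue of mixed cell types was sequenced, fewer cells of a type and less RNA per cell cannot be told apart.

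The 8 genes differed in level 886-fold between the highest and the lowest mean. TPM divides by transcript length and so allows genes to be set side by side, although a few read pairs on a short transcript can raise it. Scn7a led with a mean of 84.6 TPM over the 6 pools, followed by Scn3b with 16.9, Scn4b with 1.87, Scn2b with 1.71, Scn8a with 1.49, Scn4a with 1.03, Scn3a with 0.296 and Scn9a with 0.0954. Scn7a made up 78.4 ± 2.30% of the summed TPM of the 8 genes and 96.8 ± 2.14% of that of the 5 α subunits (SD, n = 6 pools). Scn3b made up 82.7 ± 4.30% of the summed TPM of the 3 β subunits. Only these 2 genes lay above the middle of the 16310 genes that passed a filter on low counts (a CPM, the count scaled to library size, of 0.5 or more in 3 or more pools), with Scn7a at percentile 88.7 of mean TPM and Scn3b at percentile 52.9. Scn4b, Scn2b, Scn8a and Scn4a lay between percentiles 9.99 and 15.9 by mean, with Scn4a, whose mean rested on female pool 2, at percentile 0.0123 by median, and Scn3a and Scn9a at percentiles 1.11 and 0.0429.

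**Figure D1:**
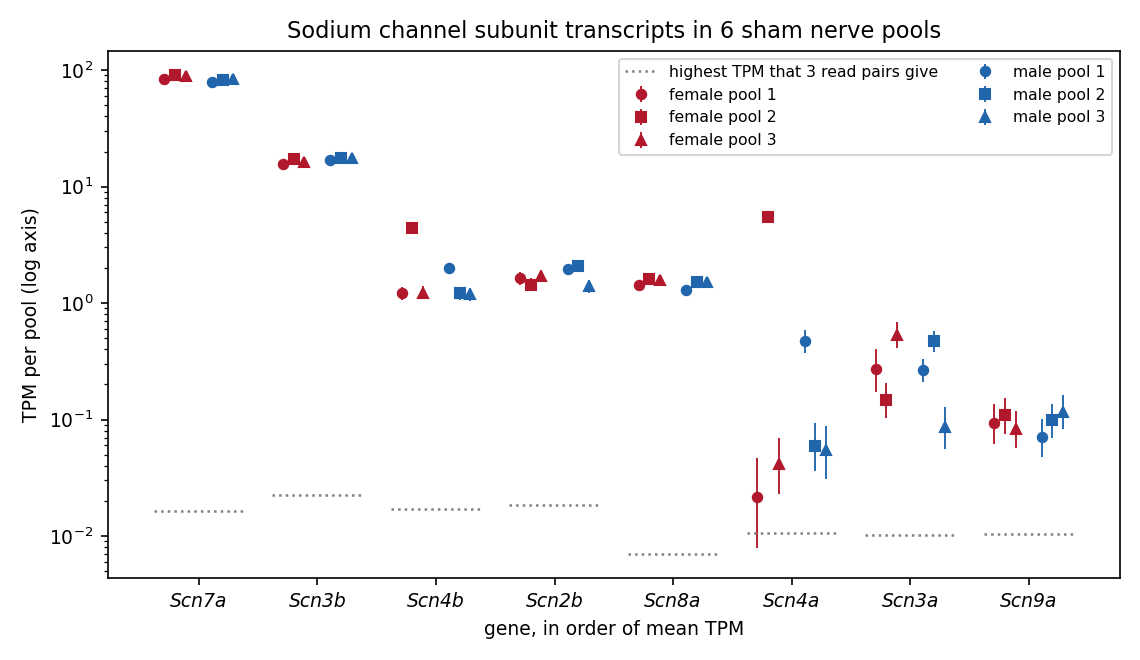
TPM of the 8 genes (log axis) in each of 3 female pools (left, red) and 3 male pools (right, blue), with vertical bars for the exact Poisson 95% interval of the read pairs behind each value and dotted lines at the highest TPM that 3 read pairs would give in any pool. Scn7a and Scn3b sat in narrow bands near 84.6 and 16.9 TPM, while Scn4a spread over 257-fold between its lowest and highest pool. With transcripts of at least 1000 bases alone, Scn4a ran from 0.0214 to 2.69 TPM.

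Neighbours in the order of mean TPM, an order taken from these same values, were tested within each pool. The test was an exact two-sided sign-flip permutation test of log2(TPM + 0.01), adjusted over the 7 neighbour pairs. No pair passed the threshold of 0.1. Scn7a was above Scn3b in 6 of 6 pools, by 2.33 ± 0.11 on the log2 scale (SD), and Scn3b was above Scn4b in 6 of 6, by 3.36 ± 0.73. Both had the smallest p that 6 pools allow, 0.03125, so a larger difference could not have lowered their adjusted p of 0.109. The test therefore cannot decide whether these 2 pairs differ. Scn4b, Scn2b and Scn8a were not separated, with Scn4b above Scn2b in 2 of 6 pools (adjusted p = 0.94, exact test) and Scn2b above Scn8a in 4 of 6 (adjusted p = 0.31, exact test). Scn4b led these genes by mean through female pool 2, without which its mean was below both others. Without female pool 2 and male pool 1, an alternative chosen after seeing the data, Scn8a was above Scn4b in 4 of 4 pools. The log2 difference was 0.31 ± 0.05 (SD). The place of Scn4a rested on 1 pool: its mean was above that of Scn3a, yet it exceeded Scn3a in 2 of 6 pools and its median, 0.0569 TPM, was the lowest of all 8.

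Scn7a encodes a channel-like α subunit that responds to the sodium concentration outside the cell rather than to voltage and is known from glia, non-myelinating Schwann cells among them. The gene lies at chr2:66503769-66615367 on the minus strand (GRCm39) and has 1 transcript in the files. It was at 83.6, 89.96 and 89.6 TPM in female pools 1 to 3, against 78.5, 81.5 and 84.2 TPM in male pools 1 to 3. The 2 highest pools were female and the 2 lowest male, but the ranges overlapped. Each value rested on 15413 to 21569 read pairs, so counting error was small. Its coefficient of variation over the pools, 0.0535, was lower than that of all but 18.01% of the genes tested. The log2 fold change of females over males was 0.04 ± 0.08 (SE), with a 95% interval of -0.14 to 0.23. The 10 genes of non-myelinating Schwann cells, Ngfr, Ncam1 and L1cam among them, all passed the filter and summed to 505 to 662 TPM in female pools and 529 to 577 TPM in male pools. Emp1, at a mean of 416 TPM, made up most of that sum. The means of Ngfr, Ncam1 and L1cam lay between 15.7 and 22.8 TPM, so the sum mainly followed Emp1.

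Scn3b encodes a β subunit that binds the α subunit without a covalent bond. It lies at chr9:40179378-40203052 on the plus strand. Its level was 15.6, 17.4 and 16.2 TPM in female pools, against 16.8, 17.7 and 17.5 TPM in male pools. Female pools 1 and 3 were the 2 lowest, and female pool 2 lay among the males. Its coefficient of variation, 0.0486, was the smallest of the 8 genes. The log2 fold change was -0.06 ± 0.08 (SE; 95% interval -0.26 to 0.13). Scn3b-201 carried 66.6 ± 4.23% of its TPM, Scn3b-203 13.6 ± 2.27% and Scn3b-202 8.81 ± 2.33% (SD, n = 6 pools), so that the same transcript led in every pool. Protein-coding transcripts together held 90.8 to 97.2% of the TPM.

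Scn2b and Scn4b encode β subunits that are joined to the α subunit by a disulfide bond. Both lie on chromosome 9, at chr9:45029080-45041368 and chr9:45049595-45065452, on the plus strand. Scn2b was at 1.63, 1.44 and 1.72 TPM in female pools, against 1.97, 2.08 and 1.39 TPM in male pools. Male pool 3 was the lowest and male pools 1 and 2 the highest, and the females lay between them. Its log2 fold change was -0.18 ± 0.16 (SE; 95% interval -0.56 to 0.20). Scn4b was at 1.21, 4.37 and 1.23 TPM in female pools, against 2.00, 1.21 and 1.19 TPM in male pools. Apart from female pool 2 and male pool 1, the pools lay within 1.19 to 1.23 TPM, a range narrower than the Poisson 95% interval of any of them.

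Scn8a encodes the main α subunit of mature nodes of Ranvier and lies at chr15:100767739-100943819 on the plus strand. It was at 1.44, 1.60 and 1.57 TPM in female pools, against 1.305, 1.52 and 1.504 TPM in male pools, from 365 to 610 read pairs a pool. Male pool 1 and female pool 1 were the lowest, and the sexes overlapped. The log2 fold change was 0.05 ± 0.14 (SE; 95% interval -0.28 to 0.38).

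By transcript, Scn8a-205 held 0, 451 and 589 read pairs in female pools, against 459, 214 and 189 in male pools. Scn8a-201 held 345, 0 and 0 read pairs in female pools, against 0, 307 and 188 in male pools. The estimates thus ran from none to nearly all of either transcript within the females, and the sexes overlapped for both. The transcripts are 11232 and 11293 bases long, and the share given to each is an estimate of the quantification. How much of the split lies in that estimate was not tested. Short Scn8a transcripts weighed more in TPM than in reads: Scn8a-202, of 1072 bases, held 18.9 ± 3.26% of the TPM and 2.30 ± 0.50% of the read pairs (SD, n = 6 pools).

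**Figure D2:**
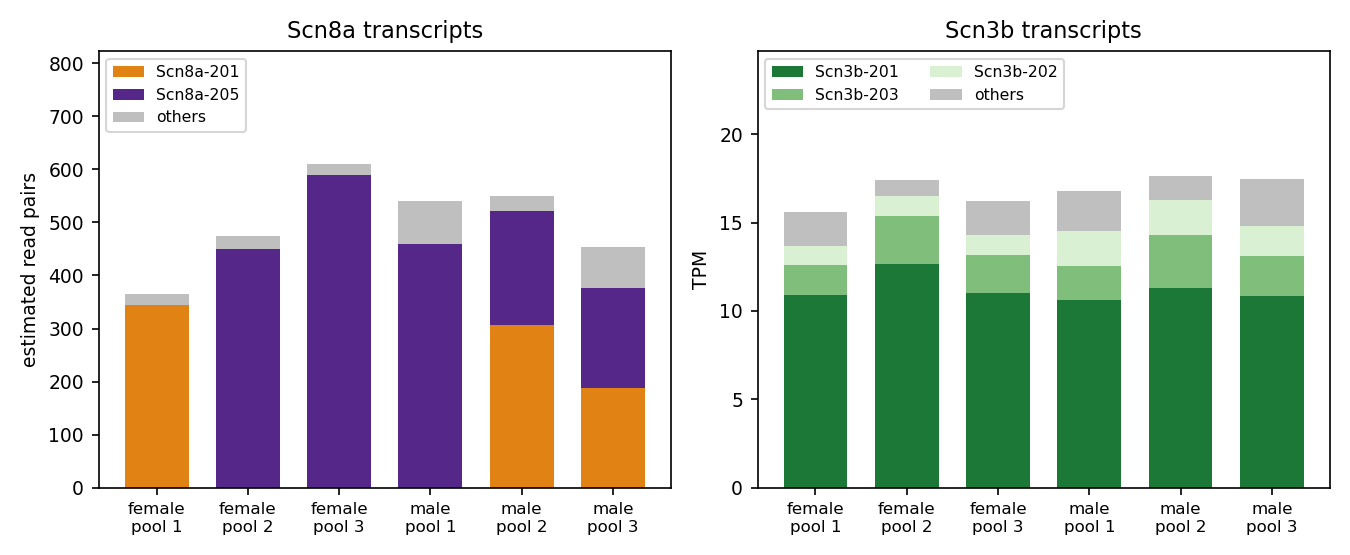
Left, estimated read pairs of Scn8a in each pool (females left, males right), stacked by transcript. Right, TPM of Scn3b in each pool, stacked by transcript. Scn8a-201 holds nearly all read pairs in female pool 1 and Scn8a-205 in female pools 2 and 3, whereas Scn3b-201 leads in all 6 pools.

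Scn9a encodes an α subunit of sensory and sympathetic neurons in which human mutations change pain, and lies at chr2:66310424-66465306 on the minus strand. It was the lowest gene by mean, at 0.0939, 0.109 and 0.0834 TPM in female pools, against 0.0709, 0.0989 and 0.117 TPM in male pools. The values rested on 27 to 37 read pairs a pool. The TPM that 3 read pairs would give for it was 0.00703 to 0.0104, so the gene was above the detection limit in 6 of 6 pools, with the sexes overlapping. The log2 fold change was -0.04 ± 0.25 (SE; 95% interval -0.62 to 0.55), an interval that holds a level 1.5-fold lower in females. By transcript, chosen after its values were seen, Scn9a-201 held 27, 16.9 and 31 read pairs in female pools and 0 in each male pool. Scn9a-202 held 0, 16.05 and 0 in female pools, against 30.3, 36.3 and 37 in male pools. These read pairs are fewer than the 50 set as a minimum for describing transcript shares, the 2 transcripts differ in length by 9840 against 9813 bases, and no test was made. The 18 sensory neuron genes summed to 109 to 114 TPM in female pools and 109 to 121 TPM in male pools. Uchl1 and Stmn2, at means of 54.1 and 32.2 TPM, made up most of that sum, and the neuronal nuclear gene Rbfox3 was at 0.0932 TPM.

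Scn3a encodes an α subunit of the embryonic nervous system that is known to return in sensory neurons after nerve injury, and lies at chr2:65287462-65397971 on the minus strand. It was at 0.270, 0.148 and 0.532 TPM in female pools, against 0.266, 0.471 and 0.0870 TPM in male pools. The highest and the lowest pool were of opposite sex, and the range was 6.11-fold. The read pairs were 24.0, 36.0 and 61.5 in female pools and 77.9, 100 and 25.1 in male pools, so the order of the pools by reads was not that by TPM. A transcript of 365 bases, Scn3a-203, held 67.6% of the TPM of female pool 1 from 1 read pair. With transcripts of at least 1000 bases alone, an alternative chosen after seeing the data, Scn3a was at 0.0876, 0.148 and 0.233 TPM in female pools and 0.266, 0.317 and 0.0870 TPM in male pools. The log2 fold change from the counts was -0.57 ± 0.46 (SE; 95% interval -1.64 to 0.51), and it was 0.20 when the counts were offset by transcript length.

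Scn4a encodes the α subunit of skeletal muscle and lies at chr11:106208370-106256385 on the minus strand. It was at 0.0214, 5.52 and 0.0417 TPM in female pools, against 0.471, 0.0595 and 0.0543 TPM in male pools. Female pool 2 held 818 read pairs and male pool 1 held 77, against 6 to 19 in each other pool. Even the lowest pool, with 6 read pairs (exact Poisson 95% interval 2.20 to 13.1, counting error only), was above the 0.0107 TPM that 3 read pairs would give there, although its interval reaches below 3. Female pool 2 was at 115 times, and male pool 1 at 9.80 times, the median of the other 4 pools. Of the TPM in female pool 2, 51.1% lay in Scn4a-202, a non-coding transcript of 443 bases that had 31 read pairs. For the protein-coding Scn4a-201 alone the 2 ratios were 56.1 and 3.95. The fast skeletal muscle list gave ratios of 53.6 and 3.33 in the same pools.

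Scn4b showed the same pools as high, at 3.61 times the median of the other 4 pools in female pool 2 and 1.65 times in male pool 1. Unlike Scn4a, it was still at 1.19 to 1.23 TPM in the 4 pools where the muscle list was at or below 86.6 TPM. The other 6 genes were at 0.399 to 1.13 times that median in female pool 2. Scn7a was at 1.07 times and Scn3b at 1.03 times. The genes whose CPM followed Scn4b most closely over the 6 pools were Tmem182, Ldb3 and Xirp1 (Pearson r of log2(CPM + 0.5) 0.997, 0.997 and 0.997, described without a test). Ldb3 encodes a Z-disc protein and Xirp1 an actin-binding protein of striated muscle. Without female pool 2 the same 3 genes had r of 0.979 to 0.988 over 5 pools. The part of muscle RNA in the Scn4a and Scn4b values was not tested beyond these ratios.

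**Figure D3:**
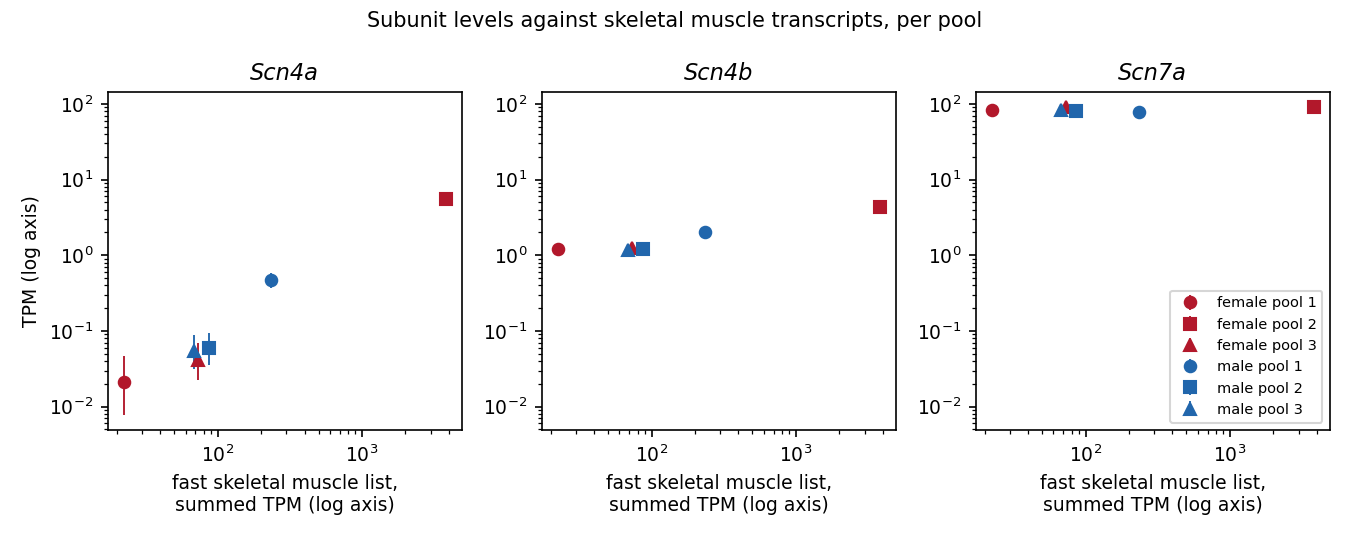
TPM of Scn4a, Scn4b and Scn7a (log axes, same vertical scale) against the summed TPM of the 16 fast skeletal muscle genes in each pool, females red and males blue, with bars for the Poisson 95% interval. Scn4a and Scn4b were highest in female pool 2 and second in male pool 1, the 2 pools with the highest sums of these genes, while Scn7a stayed within 78.5 to 89.96 TPM.

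Since Scn4a and Scn4b were high in the same pools, their promoters are shown beside that of Scn7a, which was not. The windows are RefSeq's, 300 bases around the start of each gene on GRCm38.p6, 5′ to 3′ on the strand of the gene. Capitals mark the E-box letters CANNTG, which muscle and other helix-loop-helix factors bind.
Scn4a, chr11:106349341-106349640, minus strand: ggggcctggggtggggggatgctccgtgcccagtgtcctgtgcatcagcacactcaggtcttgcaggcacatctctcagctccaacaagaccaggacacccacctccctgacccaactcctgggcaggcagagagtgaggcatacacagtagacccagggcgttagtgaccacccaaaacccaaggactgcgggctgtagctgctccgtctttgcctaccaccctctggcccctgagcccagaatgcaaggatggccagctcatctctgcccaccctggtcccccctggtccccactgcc
Scn4b, chr9:45138374-45138673, plus strand: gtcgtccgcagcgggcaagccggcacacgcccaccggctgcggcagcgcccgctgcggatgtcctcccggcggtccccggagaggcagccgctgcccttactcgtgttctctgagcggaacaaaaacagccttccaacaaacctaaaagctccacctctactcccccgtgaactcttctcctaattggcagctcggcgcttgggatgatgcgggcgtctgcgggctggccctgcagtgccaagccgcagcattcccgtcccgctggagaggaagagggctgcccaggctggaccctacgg
Scn7a, chr2:66784861-66785160, minus strand: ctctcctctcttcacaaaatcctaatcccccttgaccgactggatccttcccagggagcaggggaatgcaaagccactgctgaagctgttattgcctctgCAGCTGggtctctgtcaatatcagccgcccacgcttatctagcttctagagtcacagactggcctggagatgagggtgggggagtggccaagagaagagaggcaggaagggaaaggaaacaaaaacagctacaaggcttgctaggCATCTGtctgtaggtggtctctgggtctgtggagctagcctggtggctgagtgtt
CANNTG occurred 2 times in the Scn7a window and 0 times in the Scn4a and Scn4b windows, searched on both strands, whereas 72.3% of 32851 promoter windows of this length held it. TATAAA, also searched on both strands, occurred in none of the 3 windows and in 13.6% of all windows. Windows of 6 of the 8 genes were available. Among those not shown, CANNTG occurred 3 times for Scn2b, 1 time for Scn9a, and 2 and 0 times in the windows of Scn8a. Any link between these letters and the levels was not tested. The GC content was 63.0% for Scn4a, 66.3% for Scn4b and 54.0% for Scn7a, against a median of 52.7%.

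Between the sexes, no subunit gene was called. Of the 8 genes 7 passed the filter on low counts, and Scn4a did not, since it reached 0.5 CPM in 2 pools. With edgeR's quasi-likelihood test, adjusted by Benjamini-Hochberg over all 16310 genes at a threshold of 0.1, 0 of the 7 were called, against 0.0613% of all genes. None of the 7 had an unadjusted p under 0.05, which 6.11% of all genes had, and the adjusted p ran over 0.88 to 0.99. DESeq2 called 0 of them, against 0.975% of all genes, and 0 had an unadjusted p under 0.05. The fold change was above 0 for 3 genes and below 0 for 4, with a median log2 fold change of -0.04 against 0.0016 over all genes tested. In no subunit gene did the TPM of the 2 sexes separate, and the share of all genes that separated is not given here. A missed threshold does not show equal levels: the intervals held no difference as large as 1.5-fold for Scn7a, Scn3b, Scn8a and Scn2b, but those of Scn3a, Scn4b and Scn9a did.

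**Figure D4:**
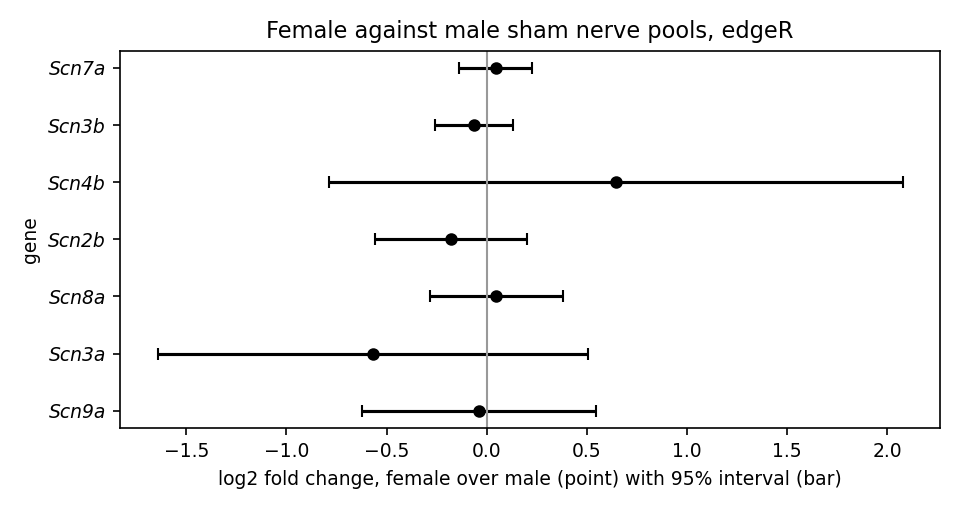
Log2 fold change of females over males from edgeR (point) with its 95% interval (bar) for the 7 genes that passed the filter, in order of mean TPM from the top. All intervals include 0, and those of Scn4b and Scn3a are the widest.

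The widest interval was that of Scn4b, with a log2 fold change of 0.64 ± 0.57 (SE; 95% interval -0.79 to 2.08). Without female pool 2 it was -0.23, and without female pool 2 and male pool 1, an alternative added after seeing the data, it was 0.04. For Scn4a the mean was 1.86 ± 3.17 TPM in female and 0.195 ± 0.239 TPM in male pools (SD, n = 3 each), and an exact two-sided permutation test of the TPM gave p = 1, where 3 against 3 cannot go below 0.1. Without female pool 2 the difference in mean was -0.163 TPM.

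Of the genes that act with sodium channels, 30 were examined, of which 26 passed the filter. edgeR called 0 of them, and 2 had an unadjusted p under 0.05. DESeq2 called 1, Dpysl2. The median log2 fold change was 0.04, with 17 above 0 and 9 below. The 10 genes of the scaffold of the node and paranode ranged over means of 0.168 TPM, for the nodal spectrin Sptbn4, to 259.7 TPM, for βII-spectrin Sptbn1. Sptbn1 averaged 258 ± 14.3 TPM in female and 261 ± 6.55 TPM in male pools, and gliomedin Gldn, the Schwann cell protein that clusters nodal channels, 85.9 ± 30.8 TPM in female and 78.8 ± 10.5 TPM in male pools (SD, n = 3 each). Of this group, the smallest p belonged to Ank2 and Cntnap1, with log2 fold changes of -0.10 ± 0.06 and 0.11 ± 0.09 (SE).

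Of the intracellular FGF-like factors that bind the tail of α subunits, Fgf11 averaged 5.59 ± 0.33 TPM in female and 4.84 ± 0.12 TPM in male pools, and Fgf13 1.70 ± 1.13 TPM in female and 1.23 ± 0.03 TPM in male pools (SD, n = 3 each). Among regulators of trafficking, the ubiquitin ligase Nedd4 was highest, at 274 ± 7.36 TPM in female and 259 ± 36.6 TPM in male pools, followed by the kinase Camk2d, at 64.01 ± 2.32 TPM in female and 60.3 ± 4.35 TPM in male pools. Dpysl2, which encodes CRMP2, a regulator of axon growth and of sodium channel trafficking, was at 26.0, 30.1 and 33.1 TPM in female pools, against 41.2, 45.3 and 44.0 TPM in male pools. The sexes did not overlap, and the log2 fold change was -0.55 ± 0.10 (SE), but edgeR's adjusted p was 0.38. DESeq2 called it (adjusted p = 0.00104), as did edgeR with no filter on low counts (adjusted p = 0.0275), and over all alternatives its adjusted p ran from 0.00104 to 0.999, the highest without female pool 2 and male pool 1. Of 12 marker lists, 2 also did not overlap between the sexes: 8 macrophage genes, Adgre1, Cd68 and Csf1r among them, summed to 3108 to 3206 TPM in female pools and 3518 to 4744 TPM in male pools, and 6 adipocyte genes, Adipoq, Plin1 and Fabp4 among them, to 547 to 1063 TPM in female pools and 488 to 528 TPM in male pools. The part of these macrophage and adipocyte genes in the Dpysl2 values was not tested. Complete separation of 3 pools from 3 has a p of 0.1 in an exact two-sided permutation test. The share of all genes that separated is not given here, so the separations are a description only. Of other sodium channel genes, Scn2a was at 2.15 ± 0.17 TPM in female and 1.98 ± 0.25 TPM in male pools (SD, n = 3 each).

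The genes most alike to each subunit over the 6 pools are given as a description. For Scn7a they were Enho, Peli2 and Pard6g (r = 0.992, 0.989 and 0.987), and for Scn3b Zcwpw1, Mtrf1 and Cspg4b (r = 0.985, 0.985 and 0.982). For Scn8a they were Sec22c, Erc2 and Zscan18 (r = 0.994, 0.990 and 0.989), and for Scn2b Psrc1, Bmper and Gtse1 (r = 0.998, 0.997 and 0.994). For Scn3a they were Gcc2, Arsb and Pikfyve (r = 0.997, 0.995 and 0.993), and for Scn9a H2ax, Mrps33 and Spock1 (r = 0.985, 0.981 and 0.977). With 6 pools, 12 to 184 of the 16310 genes tested reached an r above 0.95 with any one subunit, so the genes named were not alone. Among the subunits themselves the highest r were 0.94 for Scn7a with Scn8a and 0.88 for Scn3a with Scn2b.

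Genes on the opposite strand overlap 7 of the 8 subunit genes, all but Scn7a. Those present in the files averaged at most 0.0312 TPM, the highest being Prr29, which overlaps Scn4a by 88 bases. The libraries were strand-specific, and whether the quantification used the strand is not given in the sources used here.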

How the data were processed

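Per the labels, poly-A selected, strand-specific libraries of 6 nerve pools were read as pairs, trimmed with Trimmomatic 0.39 and quantified with Salmon 1.5.2 on GENCODE transcripts (M27 in the file names, another release in the paper). For each transcript the authors deposited an estimated count (read pairs, not normalized), a TPM scaled within a pool, and its length and effective length. Here 140789 transcripts were summed by gene identifier to 54309 genes, and counts were rounded. Genes reaching 0.5 CPM in 3 or more pools entered edgeR 4.0.16 (robust quasi-likelihood fit on TMM factors without covariates) at an adjusted p of 0.1. The authors' batch steps were not used. On simulated data for this comparison, with 16177 genes, edgeR called 28 of 50 genes changed 1.5-fold, 66 of 75 changed 2-fold and 75 of 75 changed 4-fold, with 23 unchanged genes called. Coordinates are from GENCODE M39 on GRCm39. 46 of 50 transcripts of the 8 genes matched it by identifier, 32 at the same length. Alternatives were DESeq2 1.42.0, RLE factors, other filters, length offsets, a replicate block, other pseudocounts and transcript sets, and each pool left out. The subunit genes, gene lists and tests were chosen with earlier results of these data known. Named genes were the 8 subunits, 2 partner genes of each list by level and 2 by p, and the 3 genes most alike to each subunit. Computation ran in R 4.3.3 and Python 3.11.15. Reads shared between similar genes were not tested. Some genes and sequences are not reported here.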

Additional observations from a re-analysis of the deposited data

How the results depend on the processing

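No subunit gene that passed the filter was called under any alternative tried (Scn3a and Scn9a did not pass it in some), with adjusted p of 0.584 to 0.999894. The count of all genes called, 10, was 49 with no filter, 5 with the replicate number as a block, 159 with DESeq2 and 3 without female pool 2 and male pool 1, and 3 to 8 with a pool left out. The partner genes had 1 call with no filter and 1 with DESeq2. Numbers in the labels did not pair the pools: deviations of same-numbered female and male pools correlated at -0.19, -0.16 and -0.13, and no pool correlated best with its own number. Of 84 values of the subunit fold changes, 8 changed sign, none of them called: Scn3a was 0.20 and Scn9a 0.00109 with length offsets. Over the pools left out in turn, Scn7a ran over -0.0082 to 0.0977 and Scn8a over -0.0657 to 0.168, both lowest without female pool 3, where Scn9a was 0.023. Scn8a was -0.0288 without male pool 1 and -0.0372 without female pool 2 and male pool 1. Scn9a, which passed the filter only in the fits without female pool 1, female pool 3 or male pool 1, ran over -0.233 to 0.023 in these. Scn4b ran over -0.231, without female pool 2, to 0.945. The Scn4a difference in mean TPM was -0.163 without female pool 2, and -0.163 to 2.58 over all pools left out in turn. Ordering the genes by median in place of mean, chosen after seeing the data, put 3 neighbour pairs under the threshold in place of 0. Each of the 3 had the smallest p that 6 pools allow, 0.03125 (adjusted p = 0.0729, exact sign-flip test). For Scn7a over Scn3b the difference and the p were the same under both orders. Its adjusted p, 0.109 by mean, fell because more pairs had that smallest p. The change in count therefore does not show that the pairs differ. By read pairs, which are not divided by transcript length, in place of TPM, Scn3b-201 held 73.4% and Scn8a-202, of 1072 bases, 2.30%. The cause of the shifts in calls, fold changes and the Scn4a difference was not tested. Scn9a, Scn3a and Scn4a had the fewest read pairs, 6 to 100 in a pool apart from Scn4a in female pool 2. Counting intervals cover counting error only, and Scn3a and Scn4a differed between pools by more than these.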
